A study of Mus musculus with 12 samples.

Results

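Mitochondrial fatty acid oxidation and ketogenesis were examined through 31 genes listed by name, which were all found among the 57180 genes of the liver expression tables and all passed the filter on low counts. The genes are described step by step, from the activation of fatty acids to the making of ketone bodies. The samples are 12 livers, each from a different mouse, in 4 groups of 3 (KO and Het by genotype, females and males by sex), so p-values measure the spread between mice. The KO mice are the study's CX mice, a severe model of Cockayne syndrome lacking Csa (listed as Ercc8) and Xpa, and were sampled when they reached the humane endpoint. The Het mice are littermates of matched age that also lack Csa but keep an Xpa allele (Csa-/- Xpa+/-). Both groups had received AAV9-CSA as newborns, a vector carrying human CSA under the ubiquitous chicken β-actin promoter, injected into the brain ventricles, so that neither group is untreated or wild-type. The series text writes the KO genotype as Csa-/- Xpa+/+, so groups were taken from the names KO and Het. The age of each mouse and its feeding before sampling were not given in the sources used here. Genotype and the disease state at the endpoint cannot be told apart in this design.

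Fatty acids are tied to coenzyme A, carried into mitochondria by the carnitine shuttle, and shortened in repeated rounds of dehydrogenation, hydration, a further oxidation and thiolysis. The electrons pass to the respiratory chain through electron transfer flavoprotein, and the acetyl-CoA is burned in the citrate cycle or, in liver, made into ketone bodies for other organs. Many of these genes are known targets of the nuclear receptor PPARα, which acts with RXR at repeats of the motif AGGTCA and is most active in fasting.

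The counts assigned to genes summed to 30044812 to 43634073 per liver. Unless another tool is named, tests used edgeR's quasi-likelihood F test, with p adjusted by the Benjamini-Hochberg method over the 19350 genes tested and a call at an adjusted p under 0.05. Xpa was lower in KO (0.992 to 1.83 CPM, against 3.10 to 6.34 CPM in Het, log2 fold change -1.83, adjusted p = 4.14e-05), which goes against the Xpa+/+ written for KO in the series text. Although both groups are labelled as lacking Csa, reads were counted to mouse Ercc8, at 5.10 to 8.68 CPM in Het and 14.8 to 33.997 CPM in KO (1.62, adjusted p = 0.000156). The source of these reads was not tested, and the disrupted part of the gene is not given in the sources used here, so Ercc8 does not check the labels. Of the hepatocyte markers listed, 8 of 9 were tested and 1, Ttr, was called lower, and their summed level was 67430 to 90503 CPM (counts per 1e+06 of the scaled library) in Het and 84003 to 140948 CPM in KO. Gpnmb, Itgam and Trem2 were called higher among 6 monocyte and macrophage markers, whose sum was 17.01 to 71.3 CPM in Het and 32.9 to 93.9 CPM in KO. For the 6 Kupffer cell markers, of which Vsig4 and Cd5l were called higher, the sum was 117 to 287 CPM in Het and 147 to 445 CPM in KO. By sex, this sum was 251 to 287 CPM in Het females and 239 to 445 CPM in KO females. In males it was 117 to 161 CPM in Het and 147 to 415 CPM in KO. Of 7 stellate cell and fibroblast markers, Reln and Lrat were called lower, with sums of 221 to 417 CPM in Het and 116 to 231 CPM in KO. Endothelial markers (Kdr and Clec4g called lower of 6) summed to 161 to 304 CPM in Het and 126.2 to 223 CPM in KO. Cholangiocyte, lymphocyte and neutrophil markers summed to at most 61.4, 3.95 and 6.20 CPM in any liver, and the adipocyte markers Adipoq, Plin1 and Lep were too low to test. Of the neutrophil markers S100a8 was called higher, and Ly6g, Mpo and Elane were too low to test. Erythroid markers summed to 133 to 523 CPM in Het and 108.1 to 260 CPM in KO, with Alas2 called lower. Of all tested genes, 10.2% were called lower and 12.2% higher. The part of these cell types in the results was not tested, and in whole liver fewer cells of a type and less RNA per cell cannot be told apart.

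Most of the 31 listed transcripts were lower in KO livers. The list was chosen with earlier results of these data known. Of the 31 genes, 22 were called lower and 0 higher with both sexes together, where 10.2% of all tested genes were called lower and 12.2% higher (22.4% in either direction). At an unadjusted p under 0.05 the counts were 26 lower and 0 higher, against 16.8% and 19.3% of all tested genes. DESeq2 called 24 lower and 0 higher, where it called 26.1% of all genes in either direction. The median log2 fold change was -0.57 over the 31 genes and 0.02 over all genes tested. In 14 genes the fitted level was lower by more than 1.5 times, and in 5 by more than 2 times. All 6 KO livers lay below all 6 Het livers for 13 of the 31 genes, an arrangement met by 4.64% of all tested genes, and 0 of the 31 had all KO livers above all Het livers, against 4.72%. The count of genes called lower, 22 with all livers, dropped to 14 without Het_M_125 and to 14 without KO_M_136. These fits called 16.8% and 17.8% of all genes in either direction. Summed over the 31 genes, the level per length was 2182 to 3169 TPM (the deposited transcript abundance, which corrects for gene length and sums to 1e+06) in Het and 1216 to 1874 TPM in KO.

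**Figure D1:**
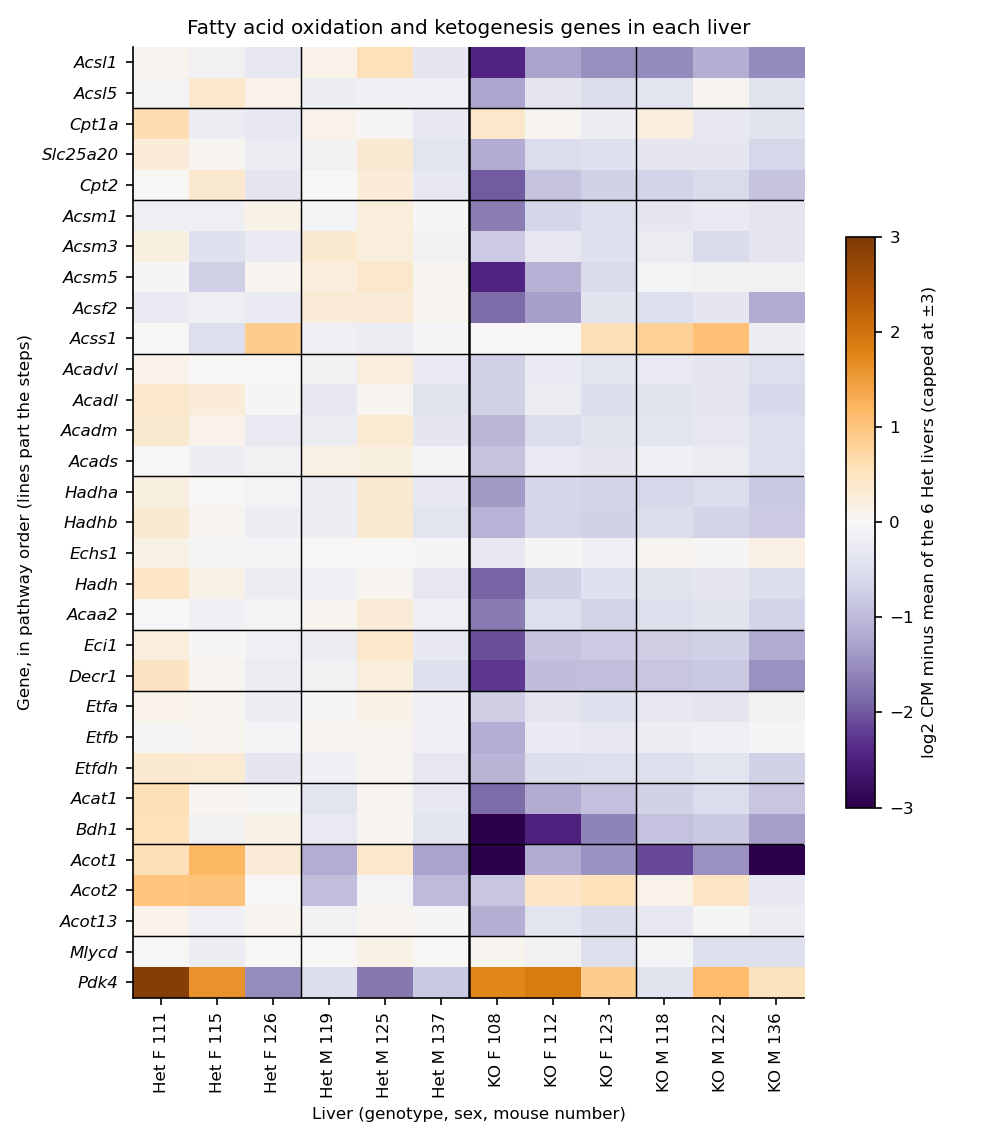
Each cell gives log2 CPM of a gene (rows, in pathway order) in a liver (columns) minus the mean of the 6 Het livers, on a colour scale capped at ±3. Most rows are lower in KO (22 genes called), Cpt1a, Echs1 and Acot2 are among the 9 not called, and KO_F_108 is lowest of all livers for 25 of 31 genes.

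KO_F_108 stood apart. Its median over the 31 genes was 1.15 below the Het mean on the log2 scale, whereas the other KO livers lay between -0.50 and -0.36 and the Het livers between -0.28 and 0.20. The share of TPM taken by Rn7s1 and Rn7s2, RNAs of the signal recognition particle, was also lowest in it, at 44.5% against 48.9 to 55.7% in the other livers. Without this liver 22 genes were called lower with both sexes together, where 19.2% of all genes were called in either direction, with Acsm5 gained (adjusted p = 0.0460) and Acsm3 lost (adjusted p = 0.0545). The median log2 fold change was -0.47.

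Promoter sequence is shown for 2 gene pairs whose members lie side by side, to set their levels beside their sequence, and for the 5 genes that hold the motif AGGTCA. Hadha and Hadhb, the subunits of the mitochondrial trifunctional protein, are read in opposite directions on chromosome 5 and their annotations overlap by 984 bases (GENCODE M39, GRCm39). Between their main first exons lies a stretch of 48 bases that no annotated exon covers, at chr5:30360188-30360235, with Hadha on the minus strand to its left and Hadhb on the plus strand to its right.
Hadha to Hadhb: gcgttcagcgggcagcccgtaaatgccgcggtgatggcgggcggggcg

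Acot1 and Acot2, which encode acyl-CoA thioesterases of the cytosol and the mitochondrion, follow each other on the plus strand of chromosome 12 with 15608 bases between them. The 200 bases before each gene start annotated in GENCODE M39 (GRCm39) are given here beside the calls, as Acot1 was called lower and Acot2 was not. RefSeq places both starts further on, with the bases before them ending at 84056275 for Acot1 and 84034634 for Acot2. Whether these stretches bear on the calls was not tested. Aligned to each other, with gaps left out of the count, these upstream stretches had 61.6% identical bases over 164 aligned bases. The canonical transcripts had 82.9% over 2012 aligned bases. No unrelated stretches were aligned in the same way, so 61.6% cannot be read as likeness.
Acot1, chr12:84056056-84056255: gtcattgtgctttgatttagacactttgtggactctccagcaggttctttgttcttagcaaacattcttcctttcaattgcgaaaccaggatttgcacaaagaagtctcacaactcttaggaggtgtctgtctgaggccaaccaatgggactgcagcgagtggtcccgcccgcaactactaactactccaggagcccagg
Acot2, chr12:84034228-84034427: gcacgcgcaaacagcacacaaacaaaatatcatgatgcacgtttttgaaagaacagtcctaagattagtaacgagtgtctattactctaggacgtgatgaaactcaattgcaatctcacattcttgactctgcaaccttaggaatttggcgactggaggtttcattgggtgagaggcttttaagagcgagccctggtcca

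Of the 31 genes, 27 were matched in a RefSeq promoter table, whose 250 bases before each start were placed in GRCm39 by exact match. The motif AGGTCA, searched on both strands, was found in 5 of these 27 (18.5%) and in 15.8% of all 27025 genes of the table. The repeat AGGTCANAGGTCA, the general PPAR and RXR element, was found in 0 of 27 genes and in 0.0407% of all genes, and with at most 1 mismatch in 0 of 27 and 0.566%. These counts describe letters in a short window only. The 5 windows follow on each gene's own strand with the motif, or its reverse complement TGACCT, in capitals.
Acadm, chr3:153650501-153650530: gTGACCTtcgggctccggtgacactgggca
Acadvl, chr11:69906324-69906353: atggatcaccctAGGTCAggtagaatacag
Acsm1, chr7:119216916-119216945: tgcactgttttcTGACCTcttgactaaacg
Cpt1a, chr19:3373195-3373224: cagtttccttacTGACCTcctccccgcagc
Echs1, chr7:139696400-139696429: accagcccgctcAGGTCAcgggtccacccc

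Of the 2 long-chain acyl-CoA synthetases, which activate fatty acids, Acsl1 fell. Acsl1, the main long-chain acyl-CoA synthetase of liver (chromosome 8, 46924063 to 46990145, GRCm39), stood at 1226, 1103 and 968 CPM in the Het females and at 1285, 1716 and 939 CPM in the Het males. The KO females had 221, 485 and 423 CPM and the KO males 406, 536 and 408 CPM. The highest KO liver lay well under the lowest Het liver. The log2 fold change was -1.55 (standard error, SE, 0.20, adjusted p = 0.000521), or 2.92-fold lower, and Acsl1 was the only gene of the 31 called in both females (-1.55, adjusted p = 0.00965) and males (-1.55, adjusted p = 0.00974). Acsl5, another long-chain synthetase, had a log2 fold change of -0.45 (adjusted p = 0.0553), with -0.82 in females (adjusted p = 0.0369) and -0.09 in males (adjusted p = 0.855). Acsl5 passed the threshold under 8 of 12 other settings, DESeq2 and limma included, and also without Het_F_111 (-0.52), KO_F_112 (-0.54) or KO_M_122 (-0.53).

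At the carnitine shuttle, Cpt2 and Slc25a20 fell and Cpt1a did not pass the test. Cpt1a, the outer-membrane carnitine palmitoyltransferase and main control point of entry (chromosome 19, 3371853 to 3437996), was at 697, 390 and 371 CPM in Het females and 489, 463 and 371 CPM in Het males. It was at 601, 480 and 397 CPM in KO females and 529, 367 and 337 CPM in KO males. The groups overlapped widely, with a log2 fold change of -0.04 (SE 0.19, adjusted p = 0.902). KO_F_108, the lowest liver for most of these genes, had the second highest Cpt1a. Cpt2, the inner-membrane partner that returns the acyl group to coenzyme A (chromosome 4, 107751473 to 107780812), was at 114, 147 and 87.7 CPM in Het females and 113, 137.5 and 93.2 CPM in Het males. It was at 28.5, 62.0 and 70.2 CPM in KO females and 71.2, 75.5 and 61.2 CPM in KO males, with no overlap. Its log2 fold change was -0.92 (SE 0.21, adjusted p = 0.0101). Slc25a20, the carnitine-acylcarnitine carrier, fell by 0.57 on the log2 scale (adjusted p = 0.0239). Its call was lost without Het_F_111 (-0.53), Het_M_125 (-0.48) or KO_M_136 (-0.54).

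Of the 5 mitochondrial synthetases for short and medium chains, 3 fell. Acsf2 (chromosome 11, 94447924 to 94508609) was at 105, 111.5 and 105 CPM in Het females, and at 153, 151 and 129 CPM in Het males. KO females had 34.6, 49.9 and 93.0 CPM and KO males 90.5, 97.8 and 55.0 CPM, all below Het. The log2 fold change was -0.84 (SE 0.22, adjusted p = 0.0178). Acsm1 fell by 0.58 (adjusted p = 0.0336) and Acsm3 by 0.46 (adjusted p = 0.0305) on the log2 scale, whereas Acsm5 had -0.66 (adjusted p = 0.0879) and was called by DESeq2 and without KO_F_108 (-0.49, adjusted p = 0.0460) or KO_F_123 (-0.90). Acsm1 lost its call without Het_F_126, Het_M_125, KO_M_118, KO_M_122 or KO_M_136, at -0.60 to -0.53. Acsm3 lost it without Het_F_111, Het_M_119, Het_M_125, KO_F_108, KO_M_122 or KO_M_136, at -0.47 to -0.37. Acss1, the mitochondrial acetyl-CoA synthetase, was near the limit of detection at 0.204 to 0.699 CPM, and its log2 fold change of 0.39 (adjusted p = 0.368) changed sign with length-scaled counts and with limma.

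All 4 acyl-CoA dehydrogenases, which open each round of oxidation at different chain lengths, fell, by 0.37 to 0.54 on the log2 scale. Acadl, for long chains (chromosome 1, 66868267 to 66902633), was at 173, 158 and 127 CPM in Het females and 104, 139 and 97.8 CPM in Het males. KO females had 80.1, 111.1 and 92.0 CPM and KO males 97.8, 101 and 86.1 CPM. KO females lay below all Het females, while Het_M_137 lay below the highest KO male. Acadl had a log2 fold change of -0.47 (SE 0.12, adjusted p = 0.0180). The very long-chain Acadvl had -0.40 (adjusted p = 0.0265), the medium-chain Acadm -0.54 (adjusted p = 0.0266) and the short-chain Acads -0.37 (adjusted p = 0.0359). Each of the last 3 lost its call without Het_F_111 (-0.39 for Acadvl, -0.47 for Acadm, -0.36 for Acads), without Het_M_125 (-0.33, -0.43 and -0.36) and without KO_M_136 (-0.38, -0.53 and -0.33). Acadm also lost it without KO_M_118 (-0.55), and Acads without Het_F_126 (-0.39), Het_M_119 (-0.37) or KO_M_122 (-0.39).

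In the remaining steps of the spiral 4 of 5 genes fell. Hadhb, the thiolase subunit of the trifunctional protein (chromosome 5, 30359204 to 30389997), was at 247, 206 and 171 CPM in Het females and 171, 244 and 147 CPM in Het males. It was at 91.4, 124 and 120 CPM in KO females and 136.5, 122.1 and 112.5 CPM in KO males, without overlap. Its log2 fold change was -0.75 (SE 0.14, adjusted p = 0.0044), and its neighbour Hadha had -0.77 (SE 0.15, adjusted p = 0.00518). Whether the stretch printed above for the pair bears on these values was not tested. In females Hadha fell by 0.91 and Hadhb by 0.90, while in males neither passed the test (-0.63 and -0.60). Acaa2, the medium-chain thiolase, fell by 0.69 (adjusted p = 0.0173) and Hadh, the short-chain hydroxyacyl-CoA dehydrogenase, by 0.67 (adjusted p = 0.0384). Hadh had no overlap between the genotypes, yet lost its call without Het_F_111, Het_F_115, Het_M_119, Het_M_125, KO_M_118, KO_M_122 or KO_M_136, at -0.69 to -0.60. Echs1, the short-chain enoyl-CoA hydratase, overlapped, at 175 to 202 CPM in Het and 147 to 208 CPM in KO, with a log2 fold change of -0.04 (SE 0.09, adjusted p = 0.767).

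Both auxiliary enzymes for unsaturated chains fell. Decr1, the mitochondrial 2,4-dienoyl-CoA reductase (chromosome 4, 15912432 to 15945649), was at 231, 174 and 142 CPM in Het females and 156, 196 and 122.1 CPM in Het males. KO females had 34.9, 84.5 and 86.2 CPM and KO males 92.3, 95.3 and 60.6 CPM. No KO liver reached the lowest Het liver, and the log2 fold change was -1.17 (SE 0.23, adjusted p = 0.00577), or 2.25-fold lower. Eci1, the enoyl-CoA isomerase, fell by 1.02 (SE 0.21, adjusted p = 0.00637), also with no overlap.

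In electron transfer, Etfdh, the oxidoreductase that hands electrons to ubiquinone (chromosome 3, 79511086 to 79536807), was at 289, 280 and 176 CPM in Het females and 207, 239 and 181 CPM in Het males. It was at 107.97, 159 and 160 CPM in KO females and 160, 173 and 140 CPM in KO males. The gap between the groups was narrow, from 173 to 176 CPM, with a log2 fold change of -0.61 (SE 0.15, adjusted p = 0.0140). Of the flavoprotein subunits, Etfa fell by 0.39 (adjusted p = 0.0172), a call lost with length-scaled counts (-0.29) and with limma (-0.27 and -0.28), and Etfb had -0.31 (adjusted p = 0.121).

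Both ketone body genes of the list fell. Acat1, the mitochondrial acetoacetyl-CoA thiolase (chromosome 9, 53450461 to 53521731), was at 531, 370 and 345 CPM in Het females and 269, 377 and 281 CPM in Het males. KO females had 99.02, 154 and 185 CPM and KO males 219, 245 and 195 CPM. All KO livers lay below all Het livers, and the KO females below all KO males. The log2 fold change was -0.999 (SE 0.17, adjusted p = 0.00216), with -1.51 in females (adjusted p = 0.00511) and -0.49 in males (adjusted p = 0.232). Without KO_F_108 the female value was -1.31 (adjusted p = 0.0115). Bdh1, which interconverts acetoacetate and β-hydroxybutyrate (chromosome 16, 31241087 to 31277725), was at 280, 176 and 212 CPM in Het females and 158, 202 and 145 CPM in Het males. It was at 11.5, 33.5 and 62.1 CPM in KO females and 101, 109 and 75.6 CPM in KO males. The same order held, with KO females lowest, and the log2 fold change was -1.73 (SE 0.33, adjusted p = 0.00488), or 3.31-fold lower. In females it was -2.64 (adjusted p = 0.0104) and in males -0.82 (adjusted p = 0.301), and without KO_F_108 the female value was -2.23 (adjusted p = 0.00473). With each sex fitted alone, Bdh1 was called in males and not in females.

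**Figure D2:**
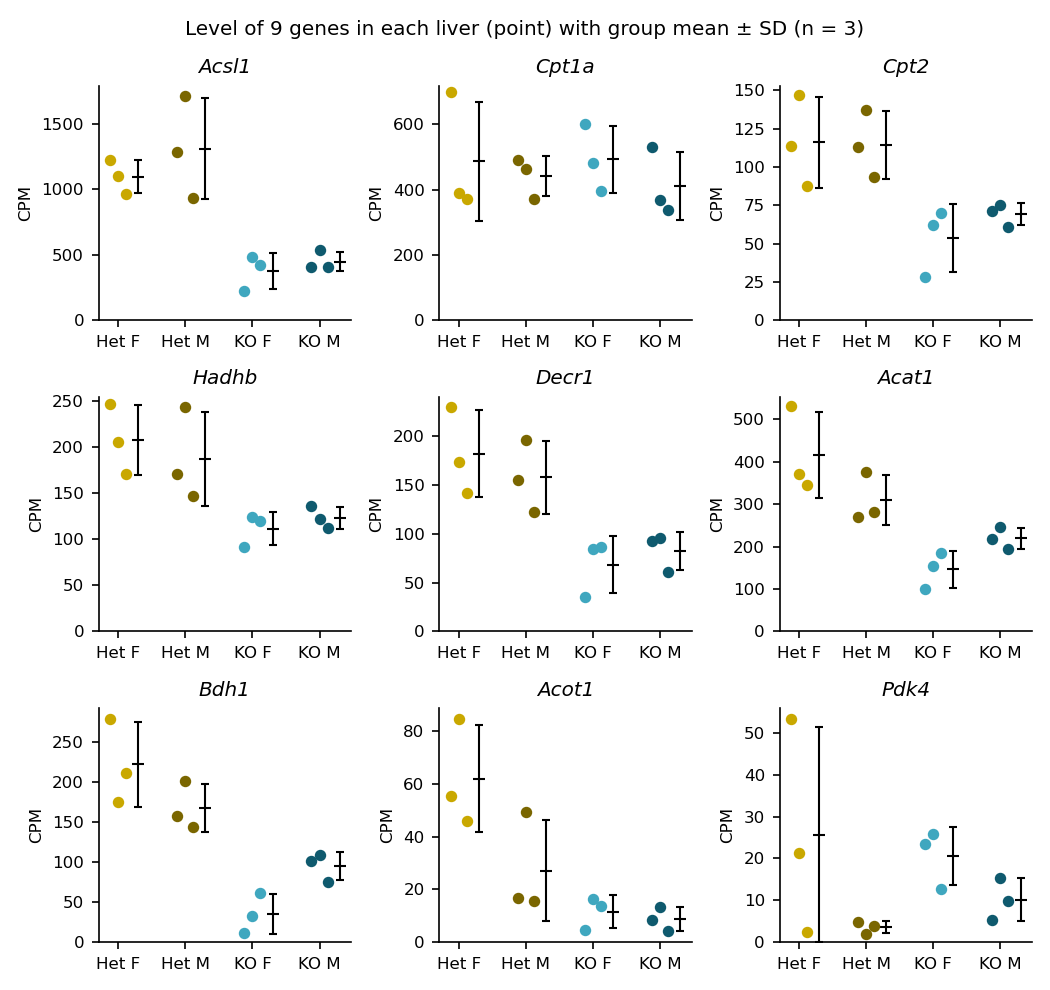
Points give the level (CPM) of 9 genes in each liver by genotype and sex (F, M), with the group mean ± SD (n = 3) in black. Acsl1, Cpt2, Hadhb, Decr1, Acat1 and Bdh1 do not overlap between the genotypes, whereas Cpt1a and Pdk4 do, as does Acot1 across the sexes.

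Among the acyl-CoA thioesterases, which release the fatty acid from coenzyme A, Acot1 had the largest fitted fall of the 31 genes. Acot1 (chromosome 12, 84056256 to 84065145) was at 55.5, 84.6 and 45.7 CPM in Het females and 16.8, 49.2 and 15.5 CPM in Het males. KO females had 4.52, 16.4 and 13.7 CPM and KO males 8.58, 13.5 and 4.27 CPM. Het spanned a wide range, and only the highest KO liver, KO_F_112, reached above the lowest Het male. The log2 fold change was -2.02 (SE 0.43, adjusted p = 0.0100), or 4.05-fold lower. Acot2, its neighbour, was at 4.16 to 16.8 CPM in Het and 4.56 to 12.3 CPM in KO, with a log2 fold change of 0.09 (SE 0.28, adjusted p = 0.854) whose sign changed when certain single livers were left out. The canonical transcripts of the pair share an identical run of 273 bases, and 29.1% of the 31-base words of Acot1 occur in Acot2, so the split of reads between them is uncertain. Their summed level was 19.6 to 101 CPM in Het and 9.08 to 27.6 CPM in KO. Acot13, another thioesterase, fell by 0.41 on the log2 scale (adjusted p = 0.0296), a call lost without Het_F_111, Het_M_125, KO_M_118 or KO_M_136 (-0.42 to -0.40).

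The genes that set fuel choice did not pass the test. Mlycd, malonyl-CoA decarboxylase, which removes the inhibitor of Cpt1a (chromosome 8, 120121303 to 120138492), was at 69.8, 60.5 and 69.4 CPM in Het females and 69.8, 76.9 and 69.3 CPM in Het males. It was at 72.6, 64.4 and 49.7 CPM in KO females and 64.9, 50.6 and 50.7 CPM in KO males. The males did not overlap and the females did, with a log2 fold change of -0.24 (SE 0.11, adjusted p = 0.136). Pdk4, a kinase that shuts off pyruvate dehydrogenase and is induced by fasting (chromosome 6, 5483097 to 5496339), was at 53.2, 21.4 and 2.42 CPM in Het females and 4.87, 2.05 and 3.97 CPM in Het males. It was at 23.3, 25.8 and 12.8 CPM in KO females and 5.23, 15.4 and 9.95 CPM in KO males. Het females were spread widely, while KO males lay above Het males, an arrangement met by 16.8% of all tested genes. The log2 fold change was 0.58 (SE 0.58, adjusted p = 0.509), and it was 1.12 without Het_F_111.

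Per length, in the deposited TPM values, the most abundant of these transcripts in Het livers was Acaa2 (372 ± 32.0 TPM, SD, n = 6), followed by Acsl1 (270 ± 52.1 TPM) and Etfb (154 ± 12.9 TPM). Next came Acadvl (135 ± 19.8 TPM), Acsl5 (130 ± 33.2 TPM) and Acadm (125.2 ± 28.3 TPM), which do not differ from each other beyond their spread. In KO livers Acaa2 also led (232 ± 52.7 TPM), while Acsl1, at 91.7 ± 19.5 TPM, was below Etfb (124.8 ± 24.4 TPM) and close to Cpt1a (87.7 ± 23.8 TPM), which had ranked 13 of 31 in Het (86.1 ± 27.5 TPM). Acot2, Pdk4 and Acss1 were lowest in both genotypes, at no more than 3.51 TPM on average.

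**Figure D3:**
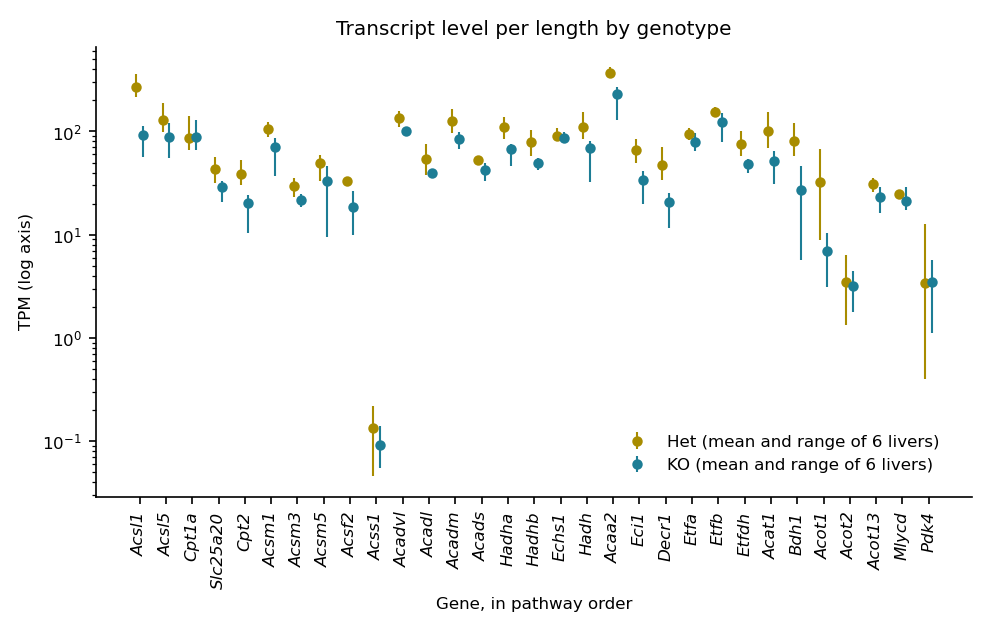
Mean TPM (log axis) of each gene in Het and KO livers, with bars from the lowest to the highest of 6 livers per genotype. Acaa2 is highest in both (372 and 232 TPM), Acsl1 drops from 270 to 91.7 TPM, and Cpt1a is at 86.1 and 87.7 TPM.

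Taken within each sex, 15 genes were called lower in females, where 5.1% of all tested genes were (11% in either direction), and 1 (Acsl1) in males, where 2.98% were (7.45%). The count called higher was 0 in females, where 5.94% of all tested genes were, and 0 in males, where 4.47% were. At an unadjusted p under 0.05 the counts were 24 lower and 0 higher in females and 12 lower and 0 higher in males. Of all tested genes, 13.8% were lower and 15.2% higher in females by that measure, and 10.7% and 13.4% in males. DESeq2 called 22 lower in females and 4 in males, where it called 16.4% and 11.7% of all genes in either direction. The median log2 fold change was -0.79 in females and -0.38 in males. By arrangement alone, all KO livers lay below all Het livers for 23 genes in females and 19 in males, against 14.7% and 15.4% of all tested genes. The female count was 4 without Het_F_111, 5 without KO_F_108 and 7 without Het_F_115, where the share of all genes called in either direction also dropped, to 5.4%, 4.38% and 6.55%. The male count was 6 without KO_F_108 (Acsl1, Cpt2, Hadha, Acaa2, Eci1 and Decr1) and 2 without KO_F_123, with 9.74% and 7.69% of all genes called. With each sex fitted alone, 2 were called in females (Acsl1 and Acat1), where 2.65% of all genes were, and 6 in males (Acsl1, Cpt2, Acsf2, Eci1, Decr1 and Bdh1), where 9.49% were.

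The difference between the sexes itself was tested as an interaction, and 0 of the 31 genes were called, with 0 by DESeq2 and by limma. Of all tested genes 0.0465% were called (by DESeq2 0.837%, by limma 0.222%, and by edgeR 0.0362% with the higher and 0.0103% with the lower value in males). At an unadjusted p under 0.05 there were 5 of 31, against 9.28% of all tested genes. These were Acsl5, Acat1, Bdh1, Acot2 and Acot13, each with the more positive value in males. For Bdh1 the male minus female difference was 1.82 on the log2 scale (95% interval 0.40 to 3.23, adjusted p = 0.467) and for Acat1 1.01 (0.28 to 1.75, adjusted p = 0.435). The difference was above 0 for 27 of 31 genes and for 51.6% of all tested genes, and without KO_F_108 for 25 of 31 and 53.2%. Between males and females, over both genotypes, 0 of the 31 genes were called, where 1.02% of all tested genes were (0.512% higher and 0.506% lower in males). At an unadjusted p under 0.05 there were 3 of 31, Acsm5, Acot2 and Pdk4, against 13.8% of all tested genes. DESeq2 called Pdk4, where it called 3.75% of all genes, and limma called 0, where it called 1.06%.

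**Figure D4:**
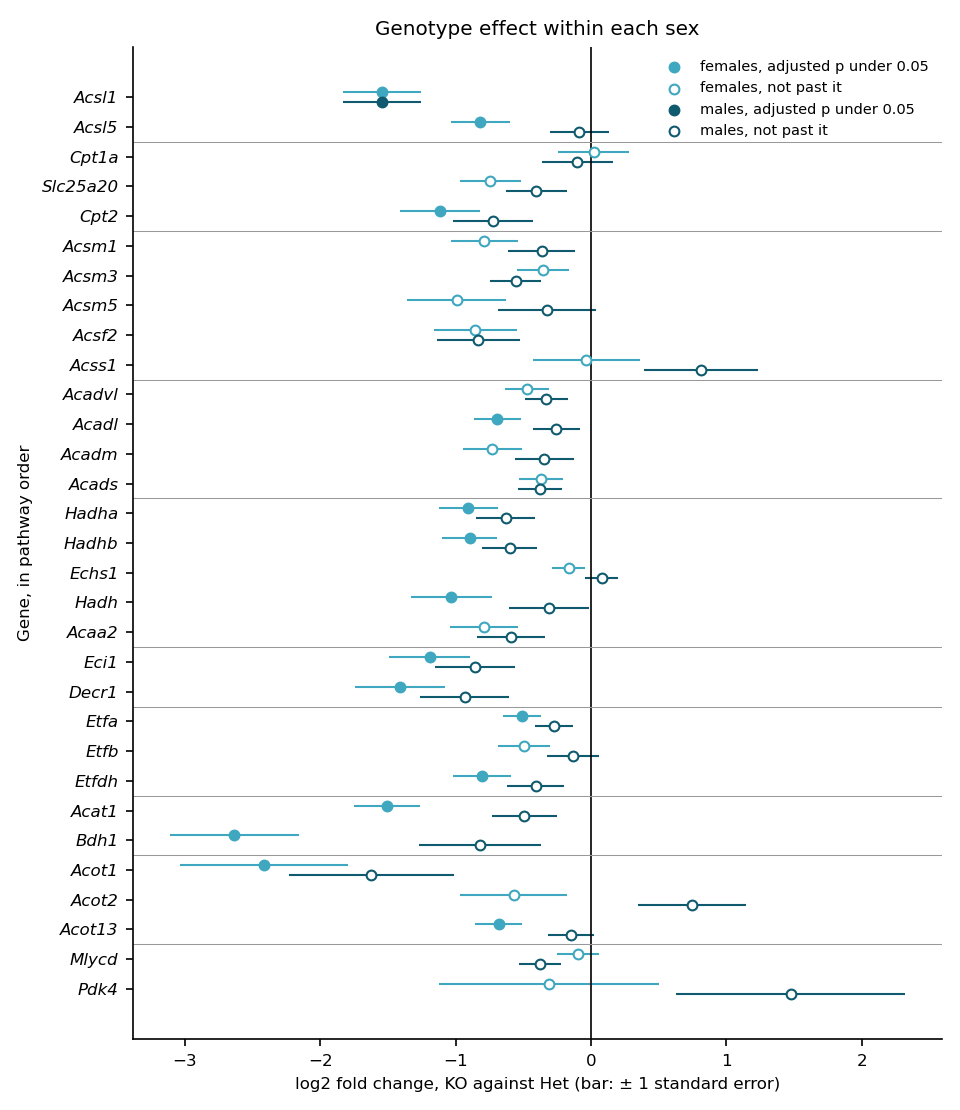
Log2 fold change of KO against Het in females (light) and males (dark), with bars of ± 1 standard error, for each gene in pathway order, filled where the adjusted p is under 0.05. Female values lie left of male values for 27 of 31 genes, and only Acsl1 (-1.55 in both sexes) is filled in males.

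The rest of the pathway was read from further lists. Among 32 tested of 33 other mitochondrial fatty acid oxidation genes, 8 were called lower (25%) and 3 higher (9.38%). Of all tested genes, 10.2% were called lower and 12.2% higher. The median log2 fold change of the list was -0.16. The 3 with the smallest p were Acadsb, a branched-chain acyl-CoA dehydrogenase (-0.55, adjusted p = 0.00271), Acsl4, a synthetase for arachidonate (0.63, adjusted p = 0.00462), and Slc22a5, the carnitine importer (-1.03, adjusted p = 0.00527). Acsl1 and Acsl4, which activate different long-chain fatty acids, moved in opposite directions. Of 9 tested other ketone body genes, 4 were called lower (44.4%, against 10.2% of all tested genes) and 1 higher (11.1%, against 12.2%). Their median log2 fold change was -0.04, and 4 of the 9 were above 0. Bdh2, a cytosolic dehydrogenase, had -0.97 (adjusted p = 0.00527), and Fgf21, a fasting hormone, -1.92 (adjusted p = 0.0230) at no more than 3.29 CPM. The gene called higher was Slc16a7, a monocarboxylate transporter.

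Among 15 regulators, 4 were called lower (26.7%, against 10.2% of all tested genes) and 0 higher (against 12.2%). At an unadjusted p under 0.05, 2 were higher, as were 19.3% of all tested genes. Ppara, the receptor that drives many of these genes, was at 241, 129 and 219 CPM in Het females and 214, 237 and 197 CPM in Het males. It was at 60.0, 93.1 and 53.1 CPM in KO females and 125.1, 54.4 and 97.96 CPM in KO males, so the genotypes did not overlap. The log2 fold change was -1.37 (SE 0.23, adjusted p = 0.00207), and Ppara was called in females (-1.51, adjusted p = 0.0165) and in males (-1.22, adjusted p = 0.0397). Creb3l3, a liver transcription factor of fasting, had -1.02 (adjusted p = 0.00460) and Prkaa2, a catalytic subunit of AMPK, -0.45 (adjusted p = 0.0145). Ppargc1a, a coactivator of Ppara, was higher on average but did not pass the test (1.63, SE 0.58, adjusted p = 0.0704), at 4.16 to 51.9 CPM in Het and 27.4 to 220 CPM in KO.

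Of 11 tested PPARα-responsive genes outside the 31, 4 were called lower (36.4%, against 10.2% of all tested genes) and 1 higher (9.09%, against 12.2%). The median was -0.24, with values from -3.59 to 1.78, and 4 of the 11 were above 0. Fabp1, the liver fatty acid binding protein, fell from 1746 to 2737 CPM in Het to 4.90 to 530 CPM in KO (log2 fold change -3.59, SE 0.77, adjusted p = 0.0100). Plin2, a lipid droplet coat protein, had -1.59 (adjusted p = 0.00389) and Cyp4a32 -1.22 (adjusted p = 0.000671). Peroxisomal β-oxidation, which shortens very long chains, had 11 of 20 genes called lower (55%), 1 higher (5%) and a median of -0.64. Nudt7, a coenzyme A hydrolase, fell by 3.19 (adjusted p = 0.000124), Abcd3, a fatty acid importer, by 1.15 (adjusted p = 0.000783) and Scp2, a thiolase and sterol carrier, by 1.14 (adjusted p = 0.000512).

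Of 21 citrate cycle and pyruvate dehydrogenase genes, 8 were called lower (38.1%, against 10.2% of all tested genes) and 0 higher (against 12.2%), with a median of -0.18. Those with the smallest p were Sucla2 (-0.46, adjusted p = 0.00454), Pdhb (-0.62, adjusted p = 0.00754) and Suclg1 (-0.41, adjusted p = 0.00837). Of the 13 proteins encoded in mitochondrial DNA, 1 was called lower, mt-Nd2 (-0.35, adjusted p = 0.0490), with a median of -0.16. That share, 7.69%, was below the 10.2% of all tested genes called lower. The next by p were mt-Nd3 (-0.56, adjusted p = 0.0723) and mt-Co3 (-0.30, adjusted p = 0.105). They took 2.60 to 3.68% of all counts in Het and 2.63 to 3.01% in KO, an overlapping range.

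**Figure D5:**
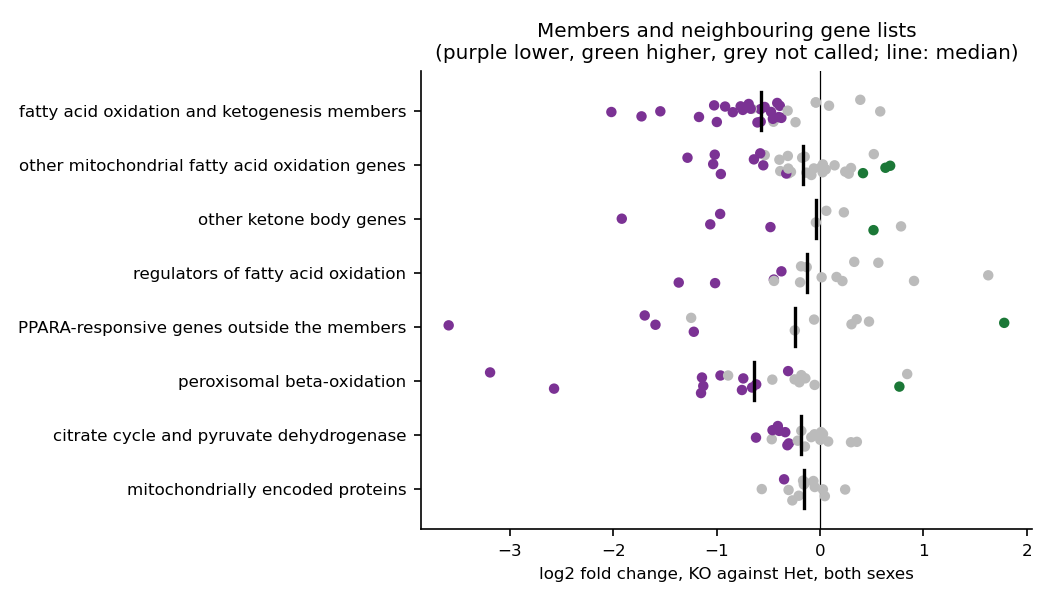
Log2 fold change of KO against Het, both sexes, for the 31 genes and 7 further lists, with each gene as a point (purple called lower, green called higher, grey not called; vertical spread within a list is only for display) and the list median as a bar. The median is -0.57 for the 31 genes, -0.64 for peroxisomal β-oxidation, and nearer 0 for the others.

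Reads of some genes could be assigned to near copies. More than 10% of 31-base words were shared with other genes for Etfb (68.0%), Hadhb (66.1%), Acsf2 (43.0%), Acot1 (39.1%), Acot2 (34.7%) and Acadm (11.7%). The copies sharing most with Hadhb, Acsf2, Etfb and Acadm were weakly counted. Hadhb-ps was at 1.21 to 3.35 CPM and Gm5540 (for Acsf2) at no more than 1.40 CPM. Etfbl (for Etfb) was at no more than 0.667 CPM and Gm5131 (for Acadm) at no more than 0.169 CPM. Acot1 shared 29.1% of its words with Acot2, and Acot2 shared 27.3% with Acot1. Levels of the other genes that share words with this pair were not examined.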

How the data were processed

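Total RNA of 12 livers was depleted of ribosomal RNA and sequenced as stranded libraries. The authors ran the nf-core RNA-seq pipeline, aligning to GRCm39 with STAR 2.7.9a and quantifying GENCODE M34 genes with Salmon 1.10.1 (versions from the submitters' processing notes). They deposited estimated counts per gene, which were rounded for the main tests (12% of values were not whole) and left unrounded in an alternative. They also deposited TPM, which keeps no depth and was used for levels between genes and for the limma alternatives. The deposited length-scaled counts were used as an alternative only, and the library-size-scaled counts were not used. All 12 sample columns were mapped by their names.

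Libraries were scaled by TMM, and genes with at least 5 reads, scaled to the median library, in at least 3 livers were kept (19350). edgeR 4.0.16 in R 4.3.3 fitted a mean per genotype and sex (quasi-likelihood F test, robust, prior count 2, as in the study's methods). Standard errors came from the F statistic. Benjamini-Hochberg adjustment ran over all genes tested, with calls at 0.05. The fit was tested on simulated data, in which small changes were not recovered. Larger ones were recovered less often within a sex than with both sexes together. Each simulated gene had the spread typical of its level rather than its own. The simulated data therefore do not set the smallest change that could be called for a single gene here.

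The 31 genes and all other lists were chosen with earlier results of these data known, so no list was tested as a set. In every step the gene of smallest p is given in full, with Cpt1a, Bdh1, Acat1 and Pdk4. Of other lists the 3 of smallest p are named where reported, with Ppara, Ppargc1a and Fgf21, and some genes of the lists are not reported here. Slc16a7, Gpnmb and the other markers called were named after their values were seen. Alternatives were other scalings and filters, unrounded or length-scaled counts, DESeq2 1.42.0, limma 3.58.1 on log2(TPM + 1) or log2(TPM + 0.1), no interaction term, each sex fitted alone and leaving out each liver. The older quasi-likelihood method, and the filter applied after rounding, were added after seeing the data. Coordinates and transcripts are from GENCODE M39, and no protein sequences were used.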

Additional observations from a re-analysis of the deposited data

How the results depend on the processing

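With both sexes together, the count of genes called lower was 20 to 24 under the 12 other settings (none called higher), and 14 to 23 when each liver was left out in turn, with medians of -0.59 to -0.56 and -0.66 to -0.47. The lowest count, 14, came without Het_M_125 or KO_M_136. In females the count was 4 to 19 and in males 1 to 6 when each liver was left out. With each sex fitted alone it was 2 in females and 6 in males, and DESeq2 called 4 in males and 1 gene (Pdk4) between the sexes, a count of 0 to 1 when each liver was left out. The cause was not tested. No gene was called for the interaction under any of these settings, and scaling by library size only moved its median over all genes to 0.16, with 29 of 31 genes above 0. The older quasi-likelihood method and the filter after rounding, chosen after seeing the data, gave 22 and 23 with both sexes.

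Of 371 further values for single genes, 349 kept direction and side of the threshold, 7 lost a call (Etfa 3, Hadh 2, Acads and Acot13 1 each), 9 gained a call (Acsl5 8, Acsm5 1) and 6 changed sign. The last were Cpt1a with length-scaled counts (0.0035) and limma (0.034 with either pseudocount) and Acss1 with length-scaled counts (-0.47) and limma (-0.053 and -0.26). When each liver was left out, 38 of 372 lost a call, all in Slc25a20, Acsm1, Acsm3, Acadvl, Acadm, Acads, Hadh and Acot13, and 7 changed sign, in Cpt1a (range -0.16 to 0.13) and Acot2 (-0.060 to 0.25). Acss1 was not testable at 10 reads in every library. No analysis paired by litter was possible, because the litter of each mouse was not given in the sources used here.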
